A study of Homo sapiens with 9 samples.

Results

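The 35 genes described here are those listed as type I interferon response genes and were taken by name from that list. Of these, 34 had a row among the 21448 transcript clusters, the groups of probes that stand for a gene on the Clariom S array, and STAT2 was not analysed here. RNA came from PC9 cells, an established human lung adenocarcinoma line driven by a mutant epidermal growth factor receptor. All cells had been transfected with a small interfering RNA (siRNA) at 15 nM and were collected 96 h later. The 9 arrays formed 3 groups of 3. In siALKBH5#1 and siALKBH5#3, ALKBH5 was targeted with siRNAs that differ in sequence, and siControl received the negative control siRNA (siNC). ALKBH5 removes the methyl group of N6-methyladenosine (m6A) from RNA. The comparisons asked which transcripts changed when ALKBH5 was depleted, and the second siRNA was used to limit the influence of off-target effects. The 3 groups share the transfection itself, the labels name no interferon treatment, and the depletion was transient. Replicates are labelled biological, but how their cultures were kept apart is not stated, and the p-values therefore reflect no more than the spread among these arrays.

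Type I interferons are secreted by cells that sense foreign or misplaced nucleic acid, above all through the RNA helicases RIG-I (encoded by RIGI) and MDA5 (encoded by IFIH1). They bind the receptor made of IFNAR1 and IFNAR2, whose kinases TYK2 and JAK1 activate a transcription complex that contains STAT2 and IRF9. The complex binds the interferon-stimulated response element (ISRE) in the promoters of many genes, whose products block viral entry, translation and replication, and many of these genes also have a basal level in epithelial tumour lines. Some of the products, such as PKR and OAS1, are activated by double-stranded RNA (dsRNA).

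The promoters of the genes the results turn on are shown first, because the ISRE is the element through which the activated complex acts. RefSeq windows of 300 bases (250 before and 50 from the gene start, GRCh38.p14) were searched on both strands for the core GAAANNGAAA. It was found in 3.57% of all 35116 windows and in 4.38% of the 27305 genes that have a window. Of the 35 listed genes, 29 had a window, and 21 of these held the core. The windows of CMPK2, HERC6, IFI35, IRF9, OAS1, RIGI, STAT2 and XAF1 did not hold these letters, and IFIT2, MX2, OAS2, OASL, IRF7 and USP18 were not searched. The stretches below are 30 bases long, 5′ to 3′ on the strand of the gene, with the core in capitals. TTTCNNTTTC is the same core read on the opposite strand.
PARP9: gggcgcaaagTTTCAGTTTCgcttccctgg
DTX3L: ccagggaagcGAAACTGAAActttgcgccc
MX1: gagcagaaatGAAACCGAAActgaattgtc
EPSTI1: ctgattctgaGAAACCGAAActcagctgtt
SAMD9: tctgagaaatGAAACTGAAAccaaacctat
IFITM1: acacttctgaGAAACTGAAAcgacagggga
IFIT3: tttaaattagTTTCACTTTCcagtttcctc
IFI44: gcacactgagTTTCAGTTTCctttctctga
IFI44L: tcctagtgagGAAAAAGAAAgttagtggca
The stretches of PARP9 and DTX3L are 1 site read on opposite strands (chr3:122564322-122564351), since these genes run in opposite directions from starts that lie close together. It lies in 1 of the 2 windows of PARP9. The MX1 core lies within the transcribed part, starting at base 12 of the gene (chr21:41420559-41420588). In EPSTI1 (chr13:42992272-42992301) and SAMD9 (chr7:93118096-93118125) the core starts 50 and 136 bases before the gene, on the minus strand of the genome. The cores of IFITM1 (chr11:314024-314053) and IFIT3 (chr10:89327865-89327894) start 6 and 122 bases before the gene, and each promoter window of IFITM1 and IFIT3 held 2 cores. That of IFI44 (chr1:78649761-78649790) starts 18 bases before the gene. The 30 bases of IFI44L (chr1:78620365-78620394) occur a second time in its window, at chr1:78620274-78620303. A match is only a description of the letters, and binding was not measured.

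The knockdown was checked on ALKBH5 itself (chromosome 17, 18183828 to 18209954, GRCh38.p14), which had intensities of 112, 96.7 and 113 with siALKBH5#1, 56.8, 30.04 and 34.8 with siALKBH5#3 and 2815, 3308 and 2361 with siControl. All siALKBH5 arrays were thus far below all siControl arrays, and the log2 difference was -4.71 ± 0.21 (adjusted p = 6.49e-07) with siALKBH5#1 and -6.17 ± 0.21 (adjusted p = 4.23e-08) with siALKBH5#3 by limma (± SE, n = 3 arrays in each group). The arrays were alike in overall signal, with a median cluster intensity of 103 to 105, and their log2 values correlated across clusters with a Pearson's r of 0.994 to 0.997 for arrays of the same group and 0.988 to 0.993 for arrays of different groups. Of 8 epithelial and lung adenocarcinoma markers, 6 stood above the 95th percentile of the array's negative control probe sets, used below as the level of the negative controls, on all arrays, whereas the lung markers NKX2-1 and NAPSA did not. With siALKBH5#1, 2 of the 8 were lower (25.0%, beside 3.56% of all clusters), CDH1 (-0.76 ± 0.18, adjusted p = 0.0233) and KRT7 (-0.40 ± 0.11, adjusted p = 0.048), whereas with siALKBH5#3 none passed and 1 had an unadjusted p under 0.05 (CDH1 0.41 ± 0.18, adjusted p = 0.154, KRT7 -0.05 ± 0.11, adjusted p = 0.807). Both were higher with siALKBH5#3 than with siALKBH5#1 (1.16 ± 0.18, adjusted p = 0.000682 for CDH1, 0.35 ± 0.11, adjusted p = 0.0477 for KRT7). The summed level of the 8 was 367300 to 370300 with siALKBH5#1, 394300 to 400700 with siALKBH5#3 and 397400 to 403500 with siControl. Of 7 measured immune cell markers only CD68, which epithelial lines also express, was above the negative controls, and it was higher with siALKBH5#1 (log2 difference 0.68 ± 0.12, adjusted p = 0.00565). The summed level of these 7 was 5489 to 6899 with siALKBH5#1, 4636 to 5014 with siALKBH5#3 and 3701 to 4031 with siControl. CD14 and NKG7 passed the test as lower with siALKBH5#1 at intensities of at most 70.0. The 5 endothelial markers summed to 208.5 to 239 with siALKBH5#1, 244.4 to 272.9 with siALKBH5#3 and 299.5 to 393.2 with siControl. PECAM1 was lower with both siRNAs and CDH5 with siALKBH5#1, and of the 5 only PECAM1 exceeded the negative controls, on 1 siControl array. None of the 5 measured fibroblast markers passed the test. Only COL1A2 of these 5 exceeded the negative controls, on all siALKBH5#3 and siControl arrays and on no siALKBH5#1 array (intensities of 119 to 236). The part of these markers in the interferon results was not tested.

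Of the 34 measured interferon response genes, 17 stayed below the level of the negative controls on all arrays. The array holds 612 negative control probe sets, and the 95th percentile of their intensities lay between 129 and 210 on the 9 arrays. Of all clusters, 52.2% to 58.0% lay below that percentile on a given array. The share of clusters below it on all 9 arrays was not counted, so dimness is not read as particular to these genes. OAS1, OAS3, IFI6, IFI35, IRF9, XAF1, IFITM1, PARP9 and EIF2AK2 exceeded that percentile on all 9 arrays, which makes 9 of 34. IFIT3, MX1, RIGI, IFIH1, HERC6, USP18, DDX60 and SAMD9 exceeded it on some. The remaining 17 exceeded it on no array, with intensities between 12.6 and 123: IFIT1, IFIT2, IFIT5, ISG15, ISG20, MX2, OAS2, OASL, IFI44, IFI44L, IFI27, RSAD2, IRF7, CMPK2, HERC5, BST2 and EPSTI1. Several of these 17, ISG15, IFIT1 and RSAD2 among them, are widely used as readouts of an interferon response. The array summary compresses differences of dim clusters, so a difference of these 17 genes may be understated.

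**Figure D1:**
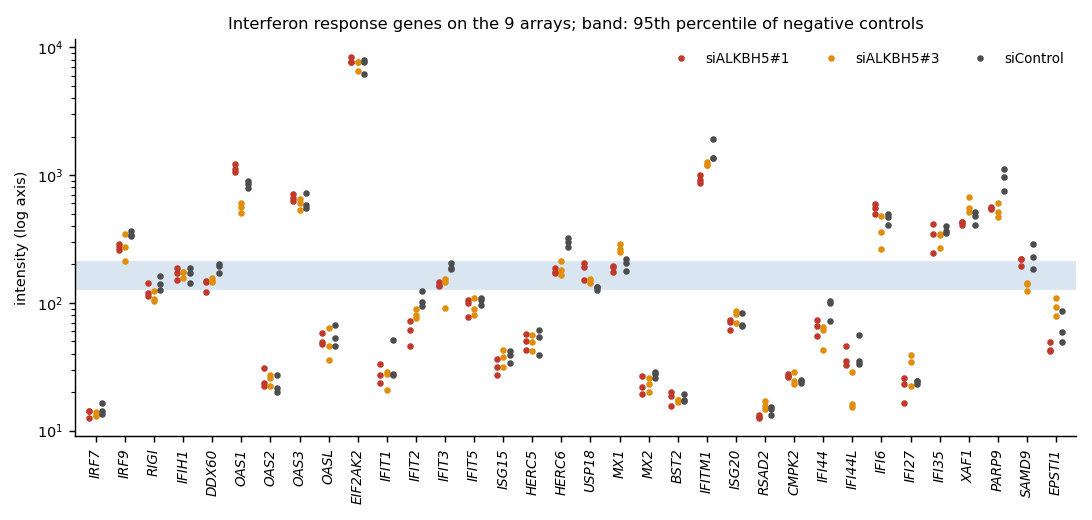
Intensities of the 34 measured interferon response genes on each of the 9 arrays (log axis), grouped by role, with siALKBH5#1, siALKBH5#3 and siControl from left to right for each gene. The band spans the 95th percentile of the negative controls over the arrays, 129 to 210. Levels of different genes are not comparable, since probes differ, and 17 of the 34 genes stay below the band on all arrays.

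After ALKBH5 knockdown most interferon response genes did not pass the test, and more of those that passed were lower than higher. With siALKBH5#1, 4 of 34 fell (IFIT2, HERC6, IFITM1 and PARP9), 1 rose (USP18) and 29 did not pass the test (limma, two-sided, adjusted over all 21448 clusters). These shares of 11.8% lower and 2.94% higher stood beside 3.56% lower and 4.51% higher among all clusters. With siALKBH5#3, 7 fell (IFIT3, OAS1, IFI44, IFI44L, HERC6, PARP9 and SAMD9), 1 rose (MX1) and 26 did not pass, that is 20.6% lower and 2.94% higher, beside 7.04% and 8.72% of all clusters. The median log2 difference of the 34 genes was -0.14 with siALKBH5#1 and -0.18 with siALKBH5#3, against -0.01 and -0.02 over all clusters. With siALKBH5#1, 25 of the 34 differences lay below 0, beside 11131 of all 21448 clusters. With siALKBH5#3, 23 of the 34 did, beside 11402 of all clusters. The comparisons with siControl share the same 3 siControl arrays, so a siControl array that deviates moves both. The methods' t-test, adjusted in the same way, called 1 of the 34 lower with siALKBH5#1 (HERC6) and 0 with siALKBH5#3. The study did not adjust its p-values. At its own threshold on fold and unadjusted p, 1 was lower with siALKBH5#1 and 2 with siALKBH5#3. In bulk RNA, fewer cells that express a gene and less of its RNA per cell cannot be told apart.

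**Figure D2:**
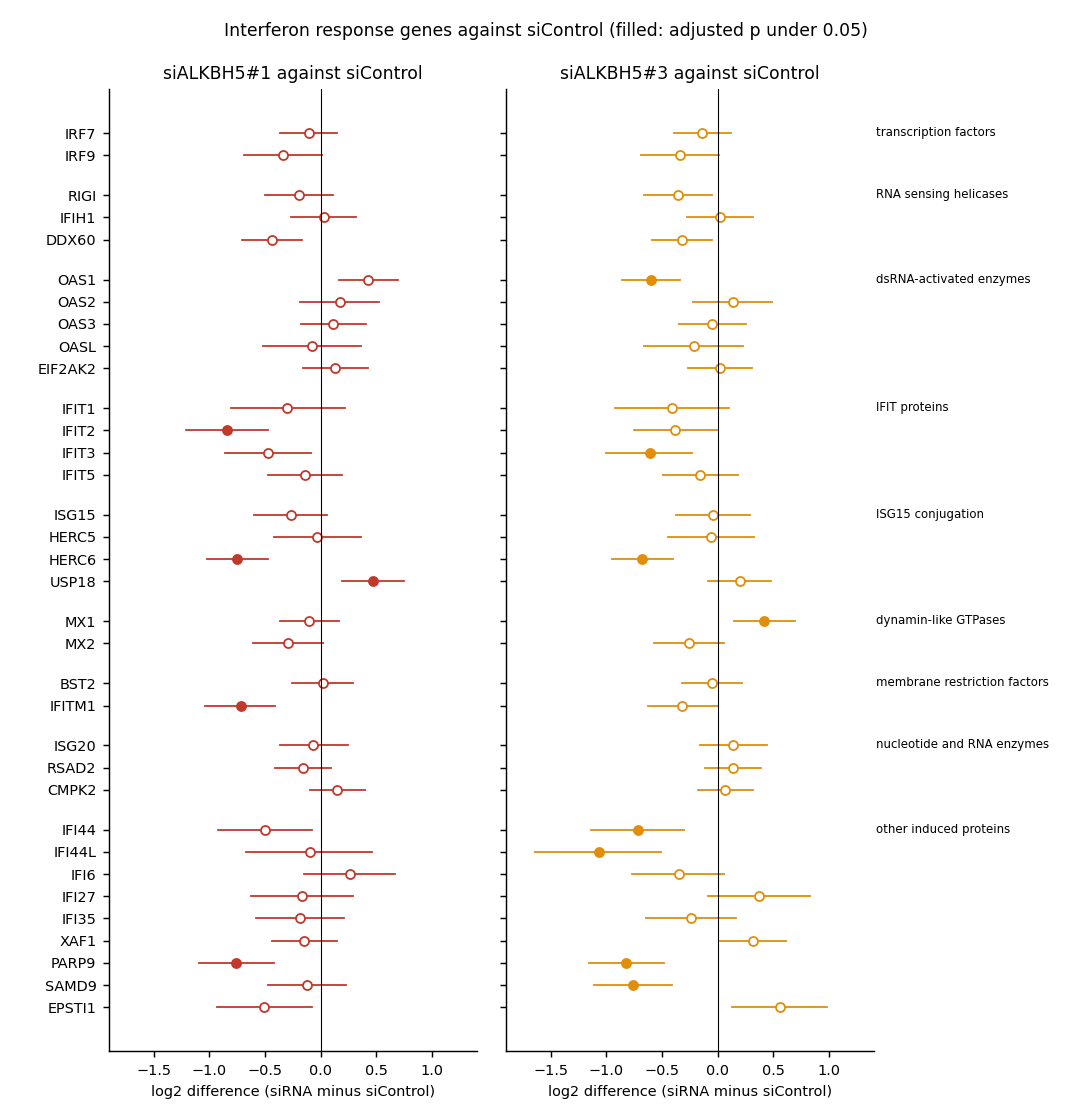
Log2 difference of each of the 34 measured genes with its 95% confidence interval, for siALKBH5#1 against siControl (left) and siALKBH5#3 against siControl (right), grouped by role. Filled points passed an adjusted p of 0.05: 4 lower and 1 higher on the left, 7 lower and 1 higher on the right.

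HERC6 and PARP9 passed the test with both siRNAs, and both were lower. The share of all clusters lower with both siRNAs was not counted, and the comparisons share the siControl arrays. The overlap is therefore given only as a description. HERC6 (chromosome 4, 88378852 to 88443097) belongs to the HERC family of ubiquitin ligases, and its mouse form attaches ISG15 to proteins. HERC6 intensities were 174, 188 and 171 with siALKBH5#1, 182, 212 and 166 with siALKBH5#3 and 301, 274 and 319 with siControl. Every siALKBH5 array lay below every siControl array, and the siRNA groups overlapped each other. HERC6 was 1.68-fold lower with siALKBH5#1 (log2 difference -0.75 ± 0.13, adjusted p = 0.0037) and 1.6-fold lower with siALKBH5#3 (-0.68 ± 0.13, adjusted p = 0.00338). It was the only interferon response gene whose call with siALKBH5#1 held under all alternatives tried. The HERC6 call with siALKBH5#3 was lost under 1, the methods' t-test after Benjamini-Hochberg adjustment (0.0628). The study itself set a threshold on fold and unadjusted p, and by it listed HERC6 as lower with both siRNAs. PARP9 (chromosome 3, 122527924 to 122564784) forms a complex with the ubiquitin ligase DTX3L that acts in interferon signalling and DNA repair. PARP9 had intensities of 559, 538 and 551 with siALKBH5#1, 606, 466 and 511 with siALKBH5#3 and 1107, 964 and 747 with siControl. Again no siALKBH5 array reached the siControl arrays, which spread more widely than the siALKBH5#1 arrays did. The log2 difference of PARP9 was -0.76 ± 0.15 (adjusted p = 0.0117) with siALKBH5#1 and -0.82 ± 0.15 (adjusted p = 0.0037) with siALKBH5#3, or 1.69-fold and 1.77-fold lower. Between the siRNAs, neither HERC6 (0.07 ± 0.13, interval -0.21 to 0.34) nor PARP9 (-0.07 ± 0.15, interval -0.40 to 0.27) passed the test.

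DTX3L, the partner of PARP9 that starts beside it, was higher with siALKBH5#3. DTX3L intensities were 1840.3, 1534 and 1699 with siALKBH5#1, 2063, 2219 and 2339 with siALKBH5#3 and 1583, 1643 and 1702 with siControl. All siALKBH5#3 arrays were above all siControl arrays, and the siALKBH5#1 arrays overlapped them. The log2 difference of DTX3L was 0.42 ± 0.12 (adjusted p = 0.0276) with siALKBH5#3 and 0.04 ± 0.12 (adjusted p = 0.883) with siALKBH5#1, so that with siALKBH5#3 the transcripts on either side of the printed GAAANNGAAA site went in opposite directions. Whether the PARP9 and DTX3L differences differ from each other was not tested.

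**Figure D3:**
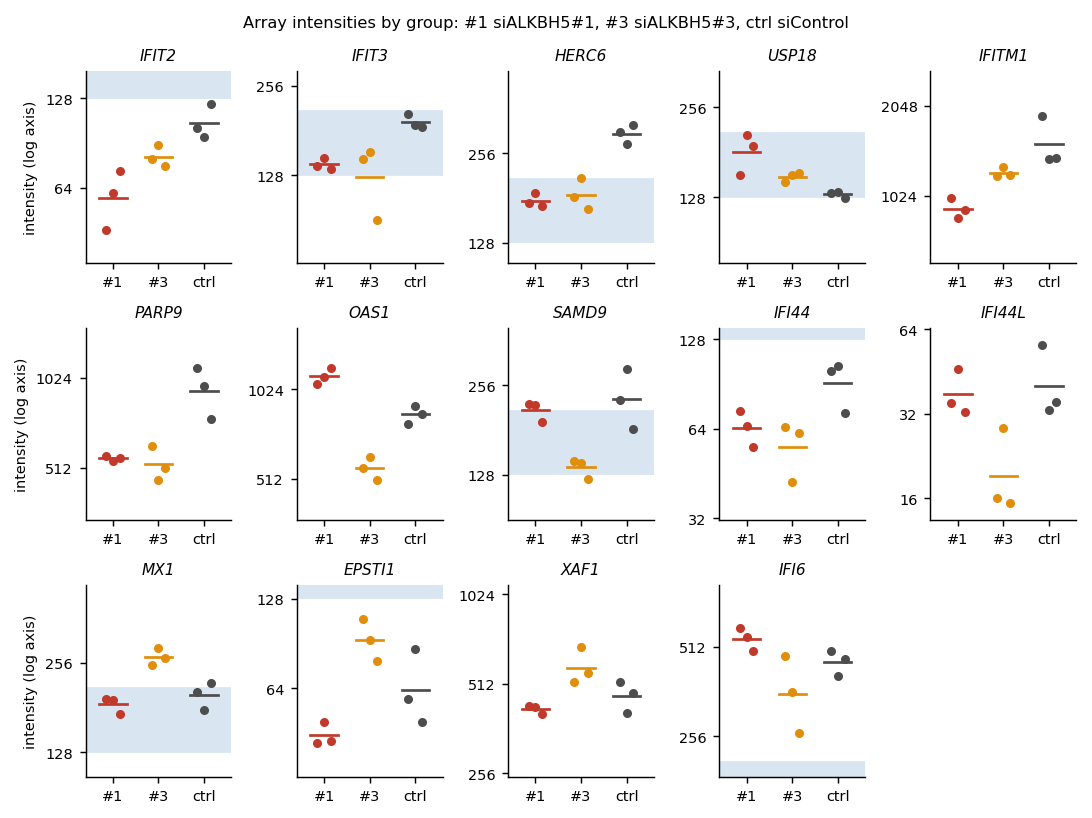
Intensities of the 14 interferon response genes that passed the test in at least 1 of the 3 comparisons (log axis, 1 panel per gene), with siALKBH5#1 (#1), siALKBH5#3 (#3) and siControl (ctrl) from left to right. Points are arrays, bars are geometric means of 3 arrays, and the shaded band is the 95th percentile of the negative controls over the arrays. In HERC6 and PARP9 both siRNA groups lie below siControl, whereas in OAS1 siALKBH5#1 lies above and siALKBH5#3 below it.

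With siALKBH5#1, the further genes that passed were IFIT2, IFITM1 and USP18. IFIT2 (chromosome 10, 89302046 to 89309271), an RNA-binding protein of the IFIT family that limits viral translation, had intensities of 46.1, 61.3 and 72.7 with siALKBH5#1, 79.7, 89.1 and 75.9 with siALKBH5#3 and 102, 94.5 and 123 with siControl, all under the level of the negative controls. Its siALKBH5#1 arrays were the lowest and its siControl arrays the highest, with no overlap between groups. The log2 difference of IFIT2 was -0.84 ± 0.17 (adjusted p = 0.0107) with siALKBH5#1, and with siALKBH5#3 it was -0.38 ± 0.17 (adjusted p = 0.162). IFITM1 (chromosome 11, 314040 to 315272) is a membrane protein that hinders the fusion of enveloped viruses with the cell. Its intensities were 1003, 859.9 and 914 with siALKBH5#1, 1194, 1276 and 1201 with siALKBH5#3 and 1902, 1360.1 and 1367 with siControl. The siControl arrays were again the highest and the siALKBH5#1 arrays the lowest, without overlap, and 1 siControl array stood above the other siControl arrays. The difference of IFITM1 was -0.72 ± 0.14 (adjusted p = 0.0101) with siALKBH5#1 (1.65-fold lower) and -0.32 ± 0.14 (adjusted p = 0.166) with siALKBH5#3. USP18 removes ISG15 from proteins and restrains signalling at the interferon receptor. USP18 (chromosome 22, 18150170 to 18177397) had intensities of 152, 206 and 189 with siALKBH5#1, 144, 152 and 154 with siALKBH5#3 and 132, 133 and 127 with siControl. All siALKBH5#1 arrays were above all siControl arrays, whose intensities were close together, and the siALKBH5#3 arrays were above siControl too and overlapped siALKBH5#1. The difference of USP18 was 0.47 ± 0.13 (adjusted p = 0.0461) with siALKBH5#1 and 0.20 ± 0.13 (adjusted p = 0.353) with siALKBH5#3. The USP18 call held under 4 of 15 alternatives. It was lost when siALKBH5#1 replicate 2 or 3 or any 1 siControl array was left out (adjusted p 0.0896 to 0.16). Other losses included an intensity trend with a robust prior (0.0685) and arrays centred on the median (0.0508).

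With siALKBH5#3, OAS1 and SAMD9 were lower at levels above or near the negative controls. OAS1 makes the oligoadenylate messengers that activate RNase L when dsRNA is bound. OAS1 (chromosome 12, 112906962 to 112933219) had intensities of 1065, 1124 and 1212 with siALKBH5#1, 559, 609 and 508 with siALKBH5#3 and 786, 902 and 847 with siControl. The 3 groups did not overlap, with siALKBH5#1 highest, siControl between and siALKBH5#3 lowest. OAS1 was 1.51-fold lower with siALKBH5#3 (log2 difference -0.60 ± 0.12, adjusted p = 0.00524), and its difference with siALKBH5#1 was 0.42 ± 0.12 (adjusted p = 0.0509), just short of the threshold. SAMD9 (chromosome 7, 93099518 to 93117979) is a cytoplasmic antiviral protein that inhibits translation. Its intensities were 222, 219.8 and 193 with siALKBH5#1, 142, 141 and 124 with siALKBH5#3 and 229, 289.9 and 183 with siControl. The siALKBH5#3 arrays were below all others, and the siALKBH5#1 and siControl arrays overlapped. The difference of SAMD9 was -0.76 ± 0.16 (adjusted p = 0.00699) with siALKBH5#3 and -0.12 ± 0.16 (adjusted p = 0.704) with siALKBH5#1.

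IFIT3, IFI44 and IFI44L were also lower with siALKBH5#3, and MX1 was higher. IFIT3, which stabilises the RNA binding of IFIT1, had intensities of 137, 147 and 134 with siALKBH5#1, 145, 153 and 90.6 with siALKBH5#3 and 206, 189 and 186 with siControl. All siALKBH5 arrays were below all siControl arrays, and siALKBH5#3 replicate 3 was the lowest. The log2 difference of IFIT3 was -0.61 ± 0.18 (adjusted p = 0.0352) with siALKBH5#3 and -0.47 ± 0.18 (adjusted p = 0.129) with siALKBH5#1, and the call with siALKBH5#3 was lost without siALKBH5#3 replicate 3 or any 1 siControl array (0.0571 to 0.0983). Without siALKBH5#3 replicate 3 the difference of IFIT3 was -0.37. The neighbouring genes IFI44 and IFI44L, whose products are both induced by interferon and related in sequence, gave only dim signals. IFI44 had 73.3, 65.4 and 55.4 with siALKBH5#1, 65.1, 42.4 and 61.8 with siALKBH5#3 and 100, 104 and 72.5 with siControl. IFI44L had 35.1, 46.3 and 32.5 with siALKBH5#1, 16.04, 28.6 and 15.4 with siALKBH5#3 and 56.4, 33.1 and 35.2 with siControl. The siALKBH5#3 arrays lay under all siControl arrays in both genes. The differences with siALKBH5#3 were -0.72 ± 0.19 (adjusted p = 0.0257) for IFI44 and -1.07 ± 0.26 (adjusted p = 0.0146) for IFI44L, and with siALKBH5#1 they were -0.50 ± 0.19 (adjusted p = 0.138) and -0.10 ± 0.26 (adjusted p = 0.853). Leaving out siALKBH5#3 replicate 2, siControl replicate 1 or siControl replicate 2 ended the call of IFI44 (0.0833 to 0.102), and siALKBH5#3 replicate 1 or 3 or siControl replicate 1 that of IFI44L (0.0574 to 0.0631).

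MX1 is a dynamin-like GTPase that traps viral nucleocapsids. MX1 (chromosome 21, 41420558 to 41459214) had intensities of 193, 192 and 173 with siALKBH5#1, 251, 287 and 266 with siALKBH5#3 and 204, 178 and 219 with siControl. All siALKBH5#3 arrays were above all other arrays, and the siALKBH5#1 and siControl arrays overlapped. MX1 was 1.34-fold higher with siALKBH5#3 than with siControl (0.42 ± 0.12, adjusted p = 0.036), a call that was lost without any 1 siALKBH5#3 array and without siControl replicate 1 or 2 (0.0525 to 0.128). With siALKBH5#1 its difference was -0.11 ± 0.12 (adjusted p = 0.653). Its relative MX2, whose intensities of 19.2 to 26.8 with siALKBH5#1, 20.1 to 25.6 with siALKBH5#3 and 26.0 to 28.6 with siControl were all dim, did not pass with either siRNA (-0.29 ± 0.14 with siALKBH5#1, -0.26 ± 0.14 with siALKBH5#3).

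The siRNAs were then compared with each other, which uses none of the siControl arrays. MX1, XAF1 and EPSTI1 were higher with siALKBH5#3 than with siALKBH5#1 (8.82% of the 34, beside 9.55% of all clusters), and OAS1, IFI44L, IFI6 and SAMD9 were lower (11.8%, beside 9.55%). The median of the 34 differences was -0.03. EPSTI1 (chromosome 13, 42886388 to 42992241), the epithelial stromal interaction protein, had intensities of 42.0, 49.2 and 42.8 with siALKBH5#1, 109.8, 92.8 and 79.0 with siALKBH5#3 and 58.8, 86.7 and 49.5 with siControl. The siALKBH5#3 arrays were all above the siALKBH5#1 arrays, the siControl arrays lay between them and overlapped siALKBH5#3, and all remained below the negative control level. The log2 difference of EPSTI1 was 1.06 ± 0.19 (adjusted p = 0.00217) between the siRNAs, 0.56 ± 0.19 (adjusted p = 0.0752) for siALKBH5#3 against siControl and -0.51 ± 0.19 (adjusted p = 0.139) for siALKBH5#1 against siControl. Between the siRNAs, OAS1 was 2.03-fold lower with siALKBH5#3 (-1.02 ± 0.12, adjusted p = 9.72e-05), and MX1 was 1.44-fold higher (0.53 ± 0.12, adjusted p = 0.00902). These differences of OAS1 and MX1 kept their call under all 15 alternatives tried. The difference of EPSTI1 kept its call under 14, since the filter on dim clusters removed its row.

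XAF1, which antagonises the inhibitor of apoptosis XIAP, had intensities of 431, 427 and 405 with siALKBH5#1, 517, 677 and 556 with siALKBH5#3 and 518, 408 and 478 with siControl. Its siALKBH5#3 arrays were above its siALKBH5#1 arrays, with the siControl arrays overlapping siALKBH5#3 and siALKBH5#1. IFI6, a membrane protein that limits apoptosis and flavivirus replication, had intensities of 591, 554 and 497 with siALKBH5#1, 478, 361 and 262 with siALKBH5#3 and 497, 408 and 466 with siControl. The siALKBH5#1 arrays of IFI6 were above the siALKBH5#3 arrays, which spread widely. The differences between the siRNAs were 0.46 ± 0.14 (adjusted p = 0.0327) for XAF1, -0.62 ± 0.19 (adjusted p = 0.0397) for IFI6, -0.64 ± 0.16 (adjusted p = 0.0142) for SAMD9 and -0.97 ± 0.26 (adjusted p = 0.0199) for IFI44L. Each of these 4 calls depended on single arrays. XAF1 and IFI6 missed the threshold without any 1 siALKBH5#1 array or without siALKBH5#3 replicate 2 or 3 (0.0649 to 0.142 and 0.0572 to 0.148), and without siALKBH5#3 replicate 3 the difference of IFI6 was -0.39. SAMD9 missed it without siALKBH5#1 replicate 1 or 2 or siALKBH5#3 replicate 3 (0.0515 to 0.0606), and IFI44L without siALKBH5#1 replicate 2 or siALKBH5#3 replicate 1 or 3 (0.0787 to 0.0866). The siALKBH5#3 arrays also held less ALKBH5 signal than the siALKBH5#1 arrays (log2 difference -1.45 ± 0.21, adjusted p = 0.000487), and how far a difference between the siRNAs follows ALKBH5 or their sequence was not tested.

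The listed RNA helicases RIGI, IFIH1 and DDX60 did not pass the test in any comparison, beside 26.6% of all clusters that passed in at least 1. RIGI had intensities of 119, 114 and 142 with siALKBH5#1, 125, 107 and 103 with siALKBH5#3 and 127, 141 and 163 with siControl. IFIH1 had 171, 151 and 186 with siALKBH5#1, 156, 174 and 173 with siALKBH5#3 and 171, 186 and 142 with siControl. Both groups of siRNA arrays overlapped siControl in IFIH1, while in RIGI the siALKBH5#3 arrays stayed just under the siControl arrays. The log2 differences of RIGI were -0.20 ± 0.14 (adjusted p = 0.444) and -0.36 ± 0.14 (adjusted p = 0.109) with siALKBH5#1 and siALKBH5#3, and those of IFIH1 were 0.03 ± 0.14 and 0.02 ± 0.14, with intervals of -0.27 to 0.32 and -0.28 to 0.32. DDX60, a helicase that promotes RIG-I signalling, had intensities of 147, 149 and 123 with siALKBH5#1, 148, 158 and 145 with siALKBH5#3 and 199.8, 195 and 171 with siControl. All siALKBH5 arrays of DDX60 were below all siControl arrays, but its differences of -0.44 ± 0.12 (adjusted p = 0.0506) with siALKBH5#1 and -0.32 ± 0.12 (adjusted p = 0.1) with siALKBH5#3 did not pass. The transcription factor IRF9, the DNA-binding part of the activated complex, had intensities of 287, 258 and 276 with siALKBH5#1, 214, 347 and 276 with siALKBH5#3 and 343, 331 and 368 with siControl, with differences of -0.34 ± 0.16 (adjusted p = 0.224) and -0.34 ± 0.16 (adjusted p = 0.178). Its siALKBH5#1 arrays lay below the siControl arrays, and siALKBH5#3 replicate 2 overlapped them. IRF7, the factor that amplifies interferon production, had 12.6 to 14.2 with siALKBH5#1, 12.9 to 14.0 with siALKBH5#3 and 13.6 to 16.4 with siControl, near the median of the negative controls (15.8 to 19.5).

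Of the OAS family and PKR, 5 genes whose products are tied to dsRNA, 4 did not pass in any comparison. Among all clusters 26.6% passed in at least 1 comparison, so this count does not set these genes apart. EIF2AK2 encodes PKR, the kinase that halts translation, and had intensities of 7709.7, 8332 and 7684 with siALKBH5#1, 7736, 7686 and 6498 with siALKBH5#3 and 6138, 7643 and 7949.9 with siControl. The 3 groups overlapped, and the intervals of its log2 difference ran over -0.16 to 0.42 with siALKBH5#1 and -0.27 to 0.31 with siALKBH5#3. OAS3, the large oligoadenylate synthetase, had 622, 663 and 715 with siALKBH5#1, 653, 531 and 602 with siALKBH5#3 and 549.7, 587 and 719.6 with siControl, also overlapping, with differences of 0.11 ± 0.14 and -0.05 ± 0.14. OAS2 and the synthetase-like OASL stayed below the negative control level (22.4 to 31.1, 22.2 to 27.1 and 20.0 to 27.2 for OAS2, 47.4 to 58.5, 35.6 to 63.3 and 45.8 to 66.6 for OASL with siALKBH5#1, siALKBH5#3 and siControl). The members of the OAS, IFIT and IFITM families resemble each other in sequence, and the specificity of their probes was not checked, so signal shared between relatives is possible.

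ISG15, the ubiquitin-like modifier itself, had intensities of 27.4, 31.6 and 36.0 with siALKBH5#1, 31.5, 37.4 and 42.9 with siALKBH5#3 and 38.9, 41.8 and 33.7 with siControl, with overlapping groups and differences of -0.27 ± 0.15 (adjusted p = 0.318) with siALKBH5#1 and -0.04 ± 0.15 (adjusted p = 0.902) with siALKBH5#3. HERC5, the main ligase for ISG15 in human cells, differed by -0.03 ± 0.18 and -0.06 ± 0.18. IFIT1, which binds RNA caps that lack a methyl group, had 33.0, 27.0 and 23.5 with siALKBH5#1, 28.8, 27.7 and 20.9 with siALKBH5#3 and 51.4, 27.7 and 27.3 with siControl. A single siControl array gave the highest IFIT1 signal and the rest overlapped, with differences of -0.30 ± 0.23 (adjusted p = 0.495) and -0.41 ± 0.23 (adjusted p = 0.279). IFIT5 differed by -0.14 ± 0.15 and -0.16 ± 0.15. The other dim genes were the restriction factor BST2 (tetherin), the radical SAM enzyme RSAD2 (viperin), its neighbour CMPK2, a nucleotide kinase, the exonuclease ISG20 and the mitochondrial protein IFI27. Their differences from siControl ranged from -0.17 (IFI27 with siALKBH5#1) to 0.37 (IFI27 with siALKBH5#3), and none passed. IFI35, a leucine zipper protein above the negative controls on all arrays, had 345, 417 and 245 with siALKBH5#1, 268, 339 and 347 with siALKBH5#3 and 402, 352 and 367 with siControl, with differences of -0.19 ± 0.18 and -0.24 ± 0.18 that did not pass.

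The genes that passed in at least 1 of the 3 comparisons numbered 14, which is 41.2% of the 34, beside 26.6% of all clusters. They were 9 of the 21 genes whose window held GAAANNGAAA, 3 of the 7 measured genes whose window did not (HERC6, OAS1 and XAF1), and 2 of the 6 that were not searched (IFIT2 and USP18), counts that are given as a description and were not tested.

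The upstream pathway was described from lists of genes that are not members. None of the 20 measured interferon ligands passed in any comparison, and their intensities of 6.87 to 65.5 were all below the negative control level. At an unadjusted p under 0.05, 3 passed with siALKBH5#1, 4 with siALKBH5#3 and 2 between the siRNAs. The share of all clusters at that unadjusted threshold was not counted, so no change of the ligands is read from these counts. IFNB1, the interferon that most cells make first, had 40.6, 21.6 and 33.3 with siALKBH5#1, 37.3, 25.6 and 28.2 with siALKBH5#3 and 27.5, 32.1 and 26.0 with siControl, with overlapping groups. Of 19 receptors, kinases and regulators, 1 rose and 2 fell with siALKBH5#1 (5.26% and 10.5%, beside 4.51% and 3.56% of all clusters), and 2 rose and 0 fell with siALKBH5#3 (10.5% higher, beside 8.72%). With siALKBH5#3, 6 were higher and 0 lower than with siALKBH5#1 (31.6% higher, beside 9.55%). IFNAR1, a chain of the type I receptor, had 503, 449.7 and 352 with siALKBH5#1, 643, 782 and 933 with siALKBH5#3 and 1125, 761 and 799 with siControl. Its siALKBH5#1 arrays were below all other arrays, and IFNAR1 was 2.05-fold lower with siALKBH5#1 (-1.03 ± 0.19, adjusted p = 0.0067) but differed by -0.18 ± 0.19 (adjusted p = 0.589) with siALKBH5#3. The other chain, IFNAR2, had 415, 336 and 442 with siALKBH5#1, 593, 718 and 819.6 with siALKBH5#3 and 760.4, 516 and 466 with siControl. The siControl arrays of IFNAR2 overlapped siALKBH5#3 and lay above siALKBH5#1, and its differences were -0.52 ± 0.19 (adjusted p = 0.122) and 0.31 ± 0.19 (adjusted p = 0.316). JAK1 had 3166, 2908 and 3352 with siALKBH5#1, 5447, 5309.5 and 4987 with siALKBH5#3 and 3838, 4154 and 4258 with siControl, in 3 groups that did not overlap. The JAK1 difference was -0.38 ± 0.11 (adjusted p = 0.0605) with siALKBH5#1 and 0.36 ± 0.11 (adjusted p = 0.0481) with siALKBH5#3, whereas TYK2 differed by -0.39 ± 0.15 (adjusted p = 0.125) and -0.24 ± 0.15 (adjusted p = 0.305). IRF1, a transcription factor that binds related elements, was lower with siALKBH5#1 (-1.08 ± 0.24, adjusted p = 0.016) and differed by 0.10 ± 0.24 (adjusted p = 0.821) with siALKBH5#3. IFNGR1, of the type II receptor, was higher with siALKBH5#3 (0.56 ± 0.14, adjusted p = 0.0156), and PTPN2, a phosphatase that opposes JAK signalling, was higher with siALKBH5#1 (0.50 ± 0.13, adjusted p = 0.0372). Between the siRNAs, siALKBH5#3 was higher than siALKBH5#1 in IFNAR1 (0.85 ± 0.19, adjusted p = 0.00785), IFNAR2 (0.83 ± 0.19, adjusted p = 0.00899), JAK1 (0.74 ± 0.11, adjusted p = 0.000624) and IRF1 (1.18 ± 0.24, adjusted p = 0.00367).

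**Figure D4:**
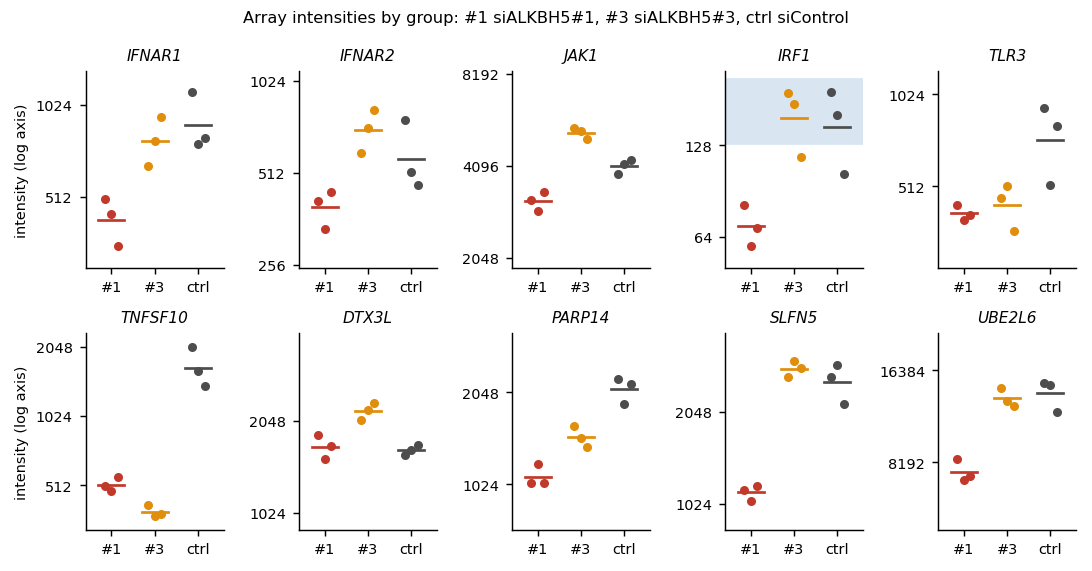
Intensities of 10 pathway genes outside the list of 35 (log axis, 1 panel per gene), with siALKBH5#1 (#1), siALKBH5#3 (#3) and siControl (ctrl) from left to right. Points are arrays, bars are geometric means of 3 arrays, and the shaded band is the 95th percentile of the negative controls over the arrays. The siALKBH5#1 arrays of IFNAR1, SLFN5 and UBE2L6 lie apart below both other groups, and in TNFSF10 and PARP14 the arrays of both siRNAs lie below siControl.

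Of 20 measured genes that lead to interferon production, 2 rose and 2 fell with siALKBH5#1 (10% each, beside 4.51% and 3.56% of all clusters), and 3 rose and 2 fell with siALKBH5#3 (15% and 10%, beside 8.72% and 7.04%). CGAS, the cytosolic DNA sensor, was higher with both (0.64 ± 0.12, adjusted p = 0.00807 with siALKBH5#1, 0.47 ± 0.12, adjusted p = 0.0209 with siALKBH5#3), as was the kinase scaffold IKBKG (0.49 ± 0.13, adjusted p = 0.0356 and 0.51 ± 0.13, adjusted p = 0.0178). TLR3, the endosomal receptor for dsRNA, had 444, 398 and 412 with siALKBH5#1, 469, 511 and 366 with siALKBH5#3 and 921, 516 and 807 with siControl, with all siALKBH5 arrays below the siControl arrays. Its difference was -0.80 ± 0.20 (adjusted p = 0.0304) with siALKBH5#1 and -0.71 ± 0.20 (adjusted p = 0.0312) with siALKBH5#3. DHX58, a helicase related to RIG-I, was lower with siALKBH5#1 (-0.87 ± 0.19, adjusted p = 0.0146). With siALKBH5#3 the kinase IKBKE was lower (-0.48 ± 0.11, adjusted p = 0.0134) and the adaptor TRAF3 higher (0.89 ± 0.13, adjusted p = 0.000763).

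Among 33 measured interferon-stimulated genes outside the list of 35, 0 rose and 6 fell with siALKBH5#1 (18.2% lower, beside 3.56% of all clusters), and 3 rose and 9 fell with siALKBH5#3 (9.09% higher and 27.3% lower, beside 8.72% and 7.04%). TNFSF10, the death ligand TRAIL, had 505, 482 and 555 with siALKBH5#1, 420.0, 376 and 383 with siALKBH5#3 and 2047, 1607 and 1389 with siControl. All siALKBH5 arrays of TNFSF10 were below all siControl arrays, and it was 3.23-fold lower with siALKBH5#1 and 4.23-fold lower with siALKBH5#3 (-1.69 ± 0.15, adjusted p = 3.22e-05 and -2.08 ± 0.15, adjusted p = 7.47e-06). PARP14, a mono-ADP-ribosyltransferase related to PARP9, was lower with both siRNAs (-0.95 ± 0.13, adjusted p = 0.000748 and -0.52 ± 0.13, adjusted p = 0.0153). SLFN5, a Schlafen family protein, had 1137, 1044 and 1169 with siALKBH5#1, 2663, 2995 and 2859.6 with siALKBH5#3 and 2657, 2910.0 and 2169 with siControl. Its siALKBH5#1 arrays stood apart below both other groups, with differences of -1.20 ± 0.13 (adjusted p = 0.000197) for siALKBH5#1 and 0.15 ± 0.13 (adjusted p = 0.507) for siALKBH5#3. UBE2L6, the conjugating enzyme for ISG15, was lower with siALKBH5#1 (-0.85 ± 0.13, adjusted p = 0.00196) and differed by -0.05 ± 0.13 (adjusted p = 0.833) with siALKBH5#3. IFITM3, a close relative of IFITM1, was lower with siALKBH5#1 as well (-0.68 ± 0.14, adjusted p = 0.0108). The nuclear body protein SP110 (-0.89 ± 0.14, adjusted p = 0.0012), the DNA sensor IFI16 (-0.78 ± 0.15, adjusted p = 0.0037) and the exoribonuclease PNPT1 (-0.93 ± 0.17, adjusted p = 0.00309) were lower with siALKBH5#3. Of 13 genes listed as responsive to interferon gamma, though not to it alone, 1 rose and 3 fell with siALKBH5#1 (7.69% and 23.1%, beside 4.51% and 3.56% of all clusters). With siALKBH5#3, 2 of them rose and 1 fell (15.4% and 7.69%, beside 8.72% and 7.04%). The guanylate-binding protein GBP2 was lower with both (-1.01 ± 0.10, adjusted p = 0.000136 and -0.42 ± 0.10, adjusted p = 0.0178), and GBP1 and GBP3 were lower with siALKBH5#1 (-0.63 ± 0.15, adjusted p = 0.0276 and -0.79 ± 0.11, adjusted p = 0.00153). ICAM1, an adhesion molecule, was higher with siALKBH5#3 (1.38 ± 0.12, adjusted p = 3.18e-05), and the tryptophanyl-tRNA synthetase WARS1 was higher with both (0.77 ± 0.12, adjusted p = 0.00255 and 0.64 ± 0.12, adjusted p = 0.00408).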

How the data were processed

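The deposited table of the authors holds RMA intensities from Clariom S arrays, not logged, with 1 value for each transcript cluster on each array. RMA corrects background, normalizes the arrays to a common distribution and summarises probes. A change in the total amount of RNA is therefore not seen, and dim differences are compressed. The submitters' processing notes name Affymetrix Expression Console and hg38, while the methods of the study name a tool of the service company entrusted with the arrays, so the step that set the final scale is not settled. Of 24351 entries, 2903 control probe sets were left out and 21448 clusters were tested, with log2 taken without a pseudocount and no filter. The annotation gave 17709 clusters 1 gene symbol, 0 several and 3739 none, and Entrez IDs placed all 17709 in RefSeq (GRCh38.p14). A gene was represented by its row of highest mean.

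The 9 arrays entered a single linear model of 3 group means in limma 3.58.1 (R 4.3.3). Moderated two-sided p-values were adjusted (Benjamini-Hochberg, over all 21448 clusters) and called at an adjusted p under 0.05. Errors are standard errors of the log2 difference on 6 residual and 5.79 prior degrees of freedom, intervals are 95%, and the number of arrays limits the precision. The procedure was tested on simulated data. The level of the negative controls was chosen after the values had been seen and entered no test. Every one of the 35 genes is named, with ALKBH5 as the check. Pathway genes could be named if called against siControl, and IFNB1, IFNAR1, IFNAR2 and TYK2 whatever their value. The members and lists were chosen with earlier results of these data known. Groups came from the sample titles. The alternatives were another prior, repeated quantile normalization, median centring, a filter on dim clusters, a pseudocount of 16, only the 2 groups compared, a replicate block, the methods' t-test, the mean of all rows of a gene and leaving out each array. Each measured interferon response gene had 1 row, so the mean of all rows left its values as they were.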

Additional observations from a re-analysis of the deposited data

Results flagged for a closer look

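The response of some genes differed between the siRNAs by a direct limma test of siALKBH5#3 against siALKBH5#1, and those are given here as log2 differences (siALKBH5#3 minus siALKBH5#1). Among the interferon response genes, siALKBH5#3 was higher in EPSTI1 (1.06), MX1 (0.53) and XAF1 (0.46), and lower in OAS1 (-1.02), IFI44L (-0.97), SAMD9 (-0.64) and IFI6 (-0.62). Of the receptors, kinases and regulators named in the text, siALKBH5#3 was higher in IRF1 (1.18), IFNGR1 (0.93), IFNAR1 (0.85), IFNAR2 (0.83) and JAK1 (0.74). These are 5 of the 6 that passed in their list, where 31.6% of 19 genes were higher, beside 9.55% of all clusters. The adaptor TRAF3 was higher too (0.98), 1 of 2 that passed among the 20 measured genes that lead to interferon production. That share of 10% higher stood beside 9.55% of all clusters. Of the 33 further interferon-stimulated genes, 8 were higher with siALKBH5#3, namely SLFN5 (1.35), UBE2L6 (0.80), PML (0.72), CNP (0.57), LY6E (0.49), IFITM3 (0.47), PARP14 (0.43) and DTX3L (0.39), and 6 were lower, namely PNPT1 (-1.08), APOBEC3G (-0.91), SP110 (-0.79), PARP12 (-0.61), TRIM5 (-0.56) and IFI16 (-0.55). These shares of 24.2% higher and 18.2% lower stood beside 9.55% in each direction among all clusters. The genes listed as responsive to interferon gamma that differed were ICAM1 (1.75), GBP2 (0.59), GBP3 (0.51) and GBP1 (0.50), all higher with siALKBH5#3. They are 30.8% of the 13 in their list, beside 9.55% higher among all clusters. ALKBH5 itself was lower with siALKBH5#3 than with siALKBH5#1, and its part in these differences was not tested.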

How the results depend on the processing

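Of 1482 values of the interferon response genes under the alternatives, 1401 kept their side of the threshold, 62 lost a call, 19 gained one and 0 called values changed sign, while 75 values that missed the threshold both ways changed sign. The 1482 include the mean of all rows of a gene, which could not move the differences of the 102 results, since each of these genes had 1 row. Of 20 called results, 4 held under every alternative that gave them a value (HERC6 with siALKBH5#1, and MX1, OAS1 and EPSTI1 between the siRNAs). EPSTI1 had 14 such alternatives and the others 15, since the filter on dim clusters removed EPSTI1. Of the 20, 9 lost the call without 1 array. A further 9 results that had missed the threshold passed under at least 1 alternative, OAS1 (adjusted p = 0.017 to 0.0497) and DDX60 (0.0174 to 0.0401) with siALKBH5#1 among them. With siALKBH5#1, 1731 clusters were called, against 2604 with an intensity trend and robust prior, 324 with the methods' t-test after Benjamini-Hochberg adjustment and 703 at the methods' own threshold on fold and unadjusted p. With siALKBH5#3, 3381 clusters were called, against 1302 and 1414 under these t-tests, and between the siRNAs 4097, against 2672 and 2028. Of the interferon response genes with siALKBH5#1, the 1 higher call became 0 with repeated quantile normalization, only the 2 groups compared, a replicate block or either t-test, and 2 with the filter on dim clusters or the pseudocount, and the 4 lower calls became 1 with either t-test. With the trend and robust prior or median centring the 1 higher call was OAS1 (adjusted p = 0.0319 and 0.0497), while USP18 missed the threshold (0.0685 and 0.0508). With siALKBH5#3, the 1 higher call became 0 with the trend and robust prior, only the 2 groups, the replicate block or either t-test, and the 7 lower calls became 0 and 2 with the adjusted t-test and the methods' own threshold. Between the siRNAs, the 3 higher calls became 1 at the methods' own threshold and the 4 lower calls became 2 with either t-test. Leaving out 1 array gave 1037 to 1723 clusters called with siALKBH5#1, 2320 to 3235 with siALKBH5#3 and 3110 to 3381 between the siRNAs. It gave 0 to 1 higher and 4 to 5 lower interferon response genes with siALKBH5#1, 0 to 1 and 4 to 7 with siALKBH5#3, and 2 to 4 and 1 to 3 between the siRNAs. The causes were not tested.

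No pairing of the samples by replicate number was seen in the values. Deviations of same-numbered arrays correlated at -0.147 to 0.123, those of other numbers at -0.176 to 0.172, and 2 of 9 arrays correlated best with their own number. Whether same-numbered cultures were handled together is not stated, and these correlations cannot tell. With the replicate block, 0 interferon response genes were higher with siALKBH5#1 and 0 with siALKBH5#3, since USP18 (adjusted p = 0.0647) and MX1 (0.0673) missed the threshold, as did XAF1 between the siRNAs (0.061). Differences of the 17 genes below the negative control level may be understated, and no detection calls were used.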
